A study of Homo sapiens with 36 samples.

Results

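The 30 genes described here make, take up, export or store cholesterol, or control those steps. They were found by symbol in the gene count table, and all 30 were among its 60591 genes. The RNA came from Caco-2 and HT-29, which are human colorectal cancer cell lines. Caco-2 had been kept for 21 days to differentiate into enterocyte-like cells (dCaco-2), while no differentiation was given for HT-29 and its medium held less serum, so line, culture state and serum cannot be told apart. Each line had been treated for 24 h with 300 µM CoCl2, with 5 µM of an oxyquinoline derivative (OD), or with neither (control), and 3 biological replicates per group gave 18 mRNA libraries. A further 18 miRNA libraries covered the same groups. OD and control wells held 0.5 µl of dimethyl sulfoxide (DMSO) per ml. The CoCl2 stock was aqueous, and the sources differ on whether DMSO was added with it, so whether the CoCl2 and control wells differed in solvent is open in these sources. OD is known only by a catalogue number. Cells degrade hypoxia-inducible factor (HIF) after prolyl hydroxylation, which both agents block, and they served here as chemical stand-ins for low oxygen.

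Cells build cholesterol from acetyl-CoA. The mevalonate arm runs from acetyl-CoA to squalene, and the sterol arm closes squalene to lanosterol and trims it to cholesterol. Several sterol-arm enzymes use molecular oxygen. Most of these genes are known targets of SREBP2, the product of SREBF2. When membrane sterol is low, SCAP escorts SREBP2 out of the endoplasmic reticulum to be cut to its active form, and when sterol is high, INSIG1 and INSIG2 hold SCAP back. Oxysterols that build up in a sterol-rich cell activate LXR receptors, which induce the exporters ABCA1 and ABCG1. SOAT1 and SOAT2 store the surplus as esters. In the gut, NPC1L1 takes sterol up from the lumen. Synthesis and uptake (20 genes) are therefore set here against efflux and esterification (4 genes), with 6 control genes described apart.

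The mRNA libraries held 12925719 to 22332639 counts. Epithelial markers (EPCAM, CDH1, KRT8, KRT18 and VIL1) were present in every group of both lines. KRT20 was low in Caco-2 controls at 5.53 CPM, CDX2 was low in HT-29 controls at 12.8 CPM, and the leukocyte marker PTPRC had 0 to 2 counts per library. The enterocyte marker ALPI stood at 22.8 CPM in Caco-2 controls and had 0 to 2 counts in HT-29. COL1A1 (25.1 CPM) and PECAM1 (8.84 CPM), markers of fibroblasts and endothelium, were detected in Caco-2 controls. The 7 markers of other cell types summed there to 42.5 to 48.8 CPM in controls, 30.6 to 33.1 after CoCl2 and 28.7 to 33.02 after OD. Their part in the results was not tested. CPM are counts per 1000000 after the library sizes of a line were scaled by TMM, edgeR's trimmed mean method, and library values are listed from lowest to highest. Differences were tested in edgeR with a quasi-likelihood F test. A gene was called when the adjusted p (FDR, over all genes tested) was under 0.05 and the log2 fold change exceeded 1 in size. "Rose" and "fell" are used where the FDR passed, and a bare value in brackets after a gene or agent is a log2 fold change. Treated groups that do not overlap the controls are described below, but such separation was common. In HT-29 it held for 40.5% of all genes above and 42.6% below control with CoCl2, and for 35.6% and 35.5% with OD. In Caco-2 the shares were 33.7% and 35.2% with CoCl2 and 29.6% and 29.8% with OD, so separation alone says little about a gene. Fewer transcripts per cell and fewer cells of a kind cannot be told apart in bulk RNA.

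In HT-29 nearly the whole synthesis pathway rose with either agent. No efflux or esterification gene was called there with TMM scaling, but only 3 were tested, so this says little. At the FDR alone CoCl2 lowered ABCA1 (-0.51) and ABCG1 (-0.53) and raised SOAT1 (0.71). CoCl2 raised 21 of the 29 genes tested in HT-29 past both thresholds and lowered 1, against backgrounds of 17.4% of all genes called higher and 23.9% lower. With OD the counts were 19 higher and 0 lower, against 9.50% and 7.57% of all genes. For the count of 0 lower with OD, edgeR put 2 genes below control at an unadjusted p under 0.05, and DESeq2 also called 0. Among the 20 synthesis and uptake genes the same 18 were called higher with each agent. The exceptions were PMVK and TM7SF2. NPC1L1, among the 18, had 8 to 10 reads in the controls and passed the count filter through its treated libraries, so its calls are not firm. The median log2 fold change of the 20 was 2.08 with CoCl2 and 2.11 with OD, where the medians of all genes were -0.03 and 0.01. SOAT2 was not tested in HT-29 because its counts were too low.

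In Caco-2 the same genes moved far less. CoCl2 gave 2 calls higher (INSIG1 and INSIG2) and 3 lower (TM7SF2, ABCA1 and SOAT2) among 30 tested, against backgrounds of 9.13% and 14.2%, so these shares were near or under those of all genes. OD gave 4 calls higher (MVD, CYP51A1, INSIG1 and INSIG2) and 0 lower, where 4.43% and 7.27% of all genes were called. For the count of 0, edgeR put 5 genes lower at an unadjusted p under 0.05 and DESeq2 called 0. At the FDR alone, CoCl2 in Caco-2 raised 16 and lowered 9 of the 30 (backgrounds 31.6% and 33.1%), and OD raised 21 and lowered 5 (25.7% and 24.7%). At the same FDR in HT-29, CoCl2 raised 24 and lowered 5 of 29 (40.7% and 42.2% of all genes), and OD 23 and 2 (34.7% and 34%). In Caco-2 the median of the 20 synthesis and uptake genes was 0.23 with CoCl2 and 0.69 with OD. Scaling bears on these small changes. When raw library size replaced TMM, the all-gene median moved in Caco-2 by -0.32 for CoCl2 and -0.15 for OD, in HT-29 by -0.63 and -0.14. Under that scaling 8 members turned from small positive to small negative values with CoCl2 in Caco-2 (MVK, FDPS, HSD17B7, EBP, SC5D, DHCR7, SREBF2 and MYLIP), whereas none of the 18 genes called in HT-29 changed sign. Of those 18, ACAT2, FDFT1, NSDHL and EBP then fell short of the limit of 1 with CoCl2 (0.78, 0.87, 0.89 and 0.80), and FDFT1 and NSDHL with OD (0.96 and 0.93). Of the 16 genes that CoCl2 raised in Caco-2 at the FDR, 10 no longer passed it with library size. Counts of members called higher and lower with library size were 16 and 4 for CoCl2 in HT-29 (lower were PMVK, TM7SF2, ABCA1 and ABCG1) and 2 and 6 in Caco-2, beside 1295 and 6250 of all genes in HT-29 and 870 and 3546 in Caco-2. TMM factors moved with treatment, with group means of 1.19, 0.770 and 1.09 for control, CoCl2 and OD in HT-29 and 1.12, 0.894 and 1.00 in Caco-2.

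**Figure D1:**
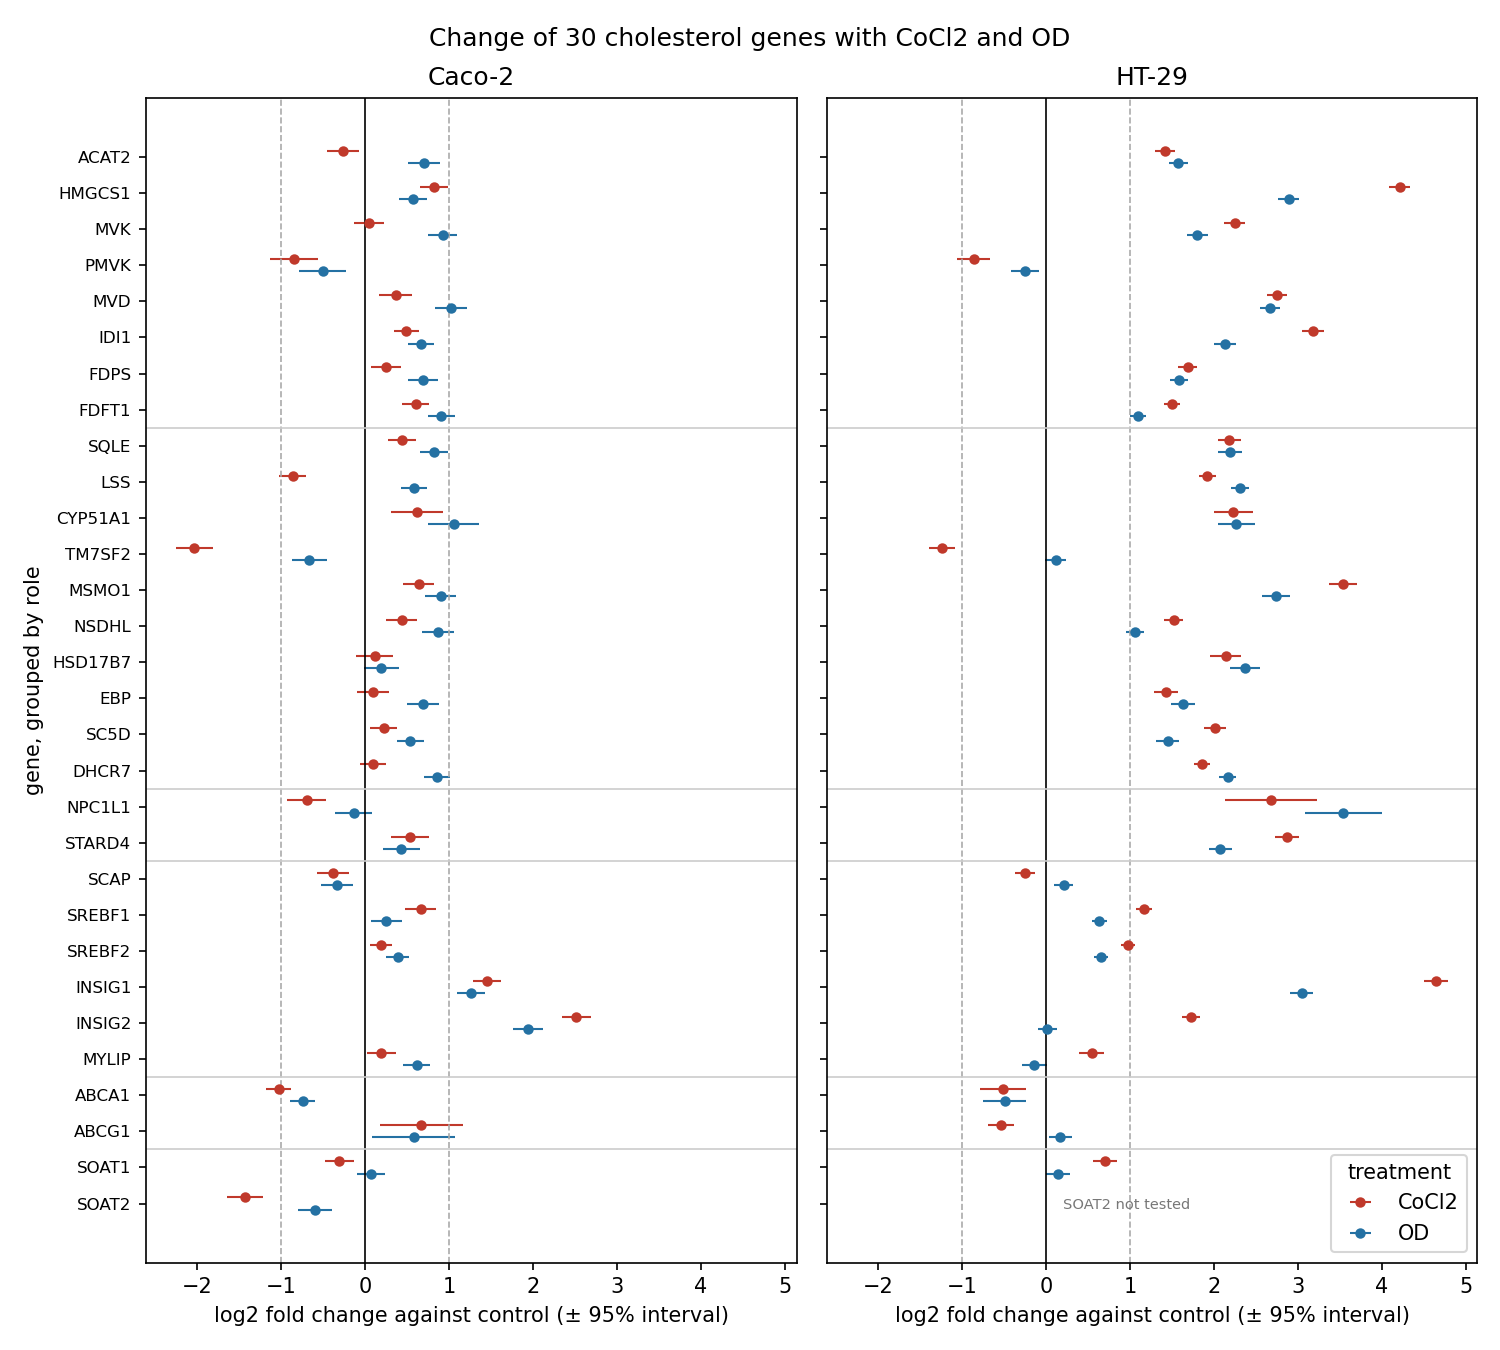
Log2 fold change of each gene against control with its 95% interval (x axis), for CoCl2 (red) and OD (blue), in Caco-2 on the left and HT-29 on the right, with genes grouped by role (y axis) and dashed lines at a log2 fold change of -1 and 1. In HT-29 the synthesis and uptake genes lie to the right of the upper line except PMVK and TM7SF2, while in Caco-2 most lie between the lines.

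The mevalonate arm holds 8 enzymes, and 7 of them were called higher in HT-29 with each agent. HMGCS1, the synthase that commits acetyl units to the pathway, changed most in HT-29. There it was at 101, 102 and 108 CPM in controls, 1839.8, 1881 and 2035 after CoCl2 and 698, 739.7 and 865 after OD. The 3 groups were apart, with CoCl2 above OD and both above control. The log2 fold change was 4.21 (SE 0.07, FDR 4.1e-27) for CoCl2, an 18.5-fold rise, and 2.89 (SE 0.06, FDR 6.19e-23) for OD. In Caco-2 HMGCS1 read 795, 807 and 885 CPM in controls, 1312, 1448 and 1625 after CoCl2 and 1119, 1228 and 1350.0 after OD. Both treated groups lay above the controls there, with log2 fold changes of 0.82 for CoCl2 and 0.57 for OD. IDI1 (GRCh38 chromosome 10, 1039152 to 1049119, minus strand), which interconverts the isoprenoid building units, followed the same order in HT-29 with 67.1, 67.3 and 71 CPM in controls, 577, 601 and 683 after CoCl2 and 271, 307 and 324 after OD. Its Caco-2 libraries read 253, 275 and 312 CPM in controls, 383, 398 and 399 after CoCl2 and 417, 456 and 457 after OD. The IDI1 fold changes were 3.18 and 2.13 (log2, CoCl2 then OD) in HT-29 and 0.49 and 0.66 in Caco-2. IDI2-AS1, which overlaps IDI1 on the other strand, changed in HT-29 by 3.82 and 2.98 on the log2 scale, and since the use of strand in counting is not stated, its reads cannot be told apart from those of IDI1.

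The kinases and the decarboxylase that follow mevalonate did not move together. MVK, which adds the first phosphate, rose in HT-29 from 17.5, 17.7 and 18.8 CPM in controls to 78.1, 86.9 and 90.3 with CoCl2 and 59.4, 63.6 and 64.8 with OD. MVK in Caco-2 read 28.2, 28.4 and 31.1 CPM in controls, 28.8, 29.4 and 32.3 after CoCl2 and 54.3, 54.8 and 57.6 after OD. Only OD separated from the Caco-2 controls, with a log2 fold change of 0.92 (SE 0.09, FDR 5.22e-09) against 0.04 (FDR 0.698) for CoCl2. MMAB, a cobalamin enzyme gene that overlaps MVK on the other strand, moved differently, at log2 fold changes of -1.28 (Caco-2) and -0.75 (HT-29) for CoCl2, and of 0.44 and 0.63 for OD. PMVK, the next kinase, was the one mevalonate gene that fell in both lines. In HT-29 PMVK read 17, 18.3 and 21.6 CPM in controls, 9.89, 10.8 and 11 after CoCl2 and 15.5, 16.3 and 16.4 after OD. Its Caco-2 libraries were at 19, 21 and 22.4 CPM in controls, 8.79, 10.9 and 15.2 after CoCl2 and 13.6, 14.1 and 16.4 after OD. The CoCl2 groups lay below the controls in both lines, at a log2 fold change of -0.86 (SE 0.10, FDR 1.01e-08) in HT-29 and -0.85 (SE 0.15, FDR 2.13e-05) in Caco-2. With OD the changes were -0.25 in HT-29 (-0.13, FDR 0.195, without control replicate 3) and -0.51 in Caco-2. MVD, which decarboxylates the product, again followed the majority with 24.8, 24.9 and 28.4 CPM in controls, 175, 175 and 176 after CoCl2 and 154, 171 and 172 after OD in HT-29. In Caco-2 MVD read 88, 91 and 94.3 CPM in controls, 102, 113 and 137 after CoCl2 and 164, 179.8 and 212 after OD. MVD changed by a log2 value of 2.75 and 2.67 in HT-29 and 0.36 and 1.03 in Caco-2, where the OD value was just past the limit of 1 and was 0.87 with library size only.

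The other 3 genes of this arm rose in HT-29 with both agents. ACAT2, the cytosolic thiolase at the head of the pathway and not the esterifying enzyme once given that name, read 44.2, 45.4 and 47.4 CPM in controls, 118, 124 and 124 after CoCl2 and 124, 137 and 148 after OD in HT-29. Caco-2 libraries of ACAT2 read 94.4, 96.5 and 99.9 CPM in controls, 72.6, 84.5 and 84.7 after CoCl2 and 139.6, 142 and 192 after OD, so that it was below control with CoCl2 (-0.27, SE 0.10, FDR 0.0223) and above it with OD (0.70, SE 0.10, FDR 1.99e-06). Without CoCl2 replicate 2 the former was -0.19 (FDR 0.142), and it did not pass without control replicate 1 either (FDR 0.0707). SOD2 and TCP1 overlap ACAT2 on the other strand, and SOD2 in HT-29 changed by 1.46 and 1.75 (log2), close to the 1.42 and 1.58 of ACAT2. In Caco-2, however, SOD2 was at 0.002 and 0.007 (FDR 0.984 and 0.949). TCP1 was at 0.85 and -0.23 in HT-29 and at 0.55 and -0.04 in Caco-2, unlike ACAT2. FDPS, which makes farnesyl diphosphate and has near-identical pseudogenes, read 56.2, 63.7 and 64.1 CPM in controls, 194, 198 and 199 after CoCl2 and 176, 179 and 196 after OD in HT-29. Its Caco-2 values were 74.1, 85 and 86.5 CPM in controls, 92.6, 94.2 and 104 after CoCl2 and 119.9, 124 and 153 after OD. RUSC1-AS1 lies on the other strand of FDPS with 140 to 1080 counts per library in HT-29 and changed there by 2.55 and 2.48 on the log2 scale, so the same limit of strand holds for FDPS. FDFT1, squalene synthase, went in HT-29 from 171, 173 and 181 CPM to 494, 496 and 499 with CoCl2 and 354, 371 and 398 with OD. The treated groups stood clear of the controls in each case, and CoCl2 stood above OD for FDFT1. FDFT1 in Caco-2 read 151, 157 and 160.0 CPM in controls, 217, 243 and 248 after CoCl2 and 267, 273 and 336 after OD, a log2 fold change of 0.60 and 0.91.

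In the sterol arm 9 of 10 genes were called higher in HT-29 with each agent, and TM7SF2 fell with CoCl2. SQLE, squalene epoxidase, which uses oxygen in a slow step of the pathway, read 214, 238 and 263 CPM in controls, 1057, 1085 and 1108 after CoCl2 and 958, 1067 and 1236 after OD in HT-29. The CoCl2 and OD libraries overlapped, both far above control, with log2 fold changes of 2.19 (SE 0.07, FDR 1.84e-20) and 2.19 (SE 0.07, FDR 1.19e-19). In Caco-2 SQLE rose from 169, 189.6 and 195 CPM to 238, 240.1 and 274 with CoCl2 (0.44) and 296, 317 and 367 with OD (0.82). LSS, which closes squalene epoxide to lanosterol, moved in opposite directions between the lines with CoCl2. It rose in HT-29 from 52.8, 54.5 and 54.6 CPM to 197, 199 and 217 (1.92, SE 0.05, FDR 5.76e-22) and fell in Caco-2 from 164, 169 and 177 to 86.3, 93.2 and 101 (-0.86, SE 0.08, FDR 2.24e-09). With OD it rose in both, to 257, 269 and 277 CPM in HT-29 and 239, 240.2 and 285 in Caco-2.

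CYP51A1, the oxygen-dependent lanosterol demethylase, was thinly counted. It read 3.15, 3.23 and 3.66 CPM in controls, 15.1, 15.8 and 16.2 after CoCl2 and 14.1, 16.4 and 17.6 after OD in HT-29 from 50, 67 and 84 reads in the controls. Caco-2 libraries read 5.63, 6.64 and 8.65 CPM in controls, 9.01, 10.8 and 12.2 after CoCl2 and 13.7, 14.5 and 15.2 after OD. Both treated groups lay above control in each line, with log2 fold changes of 2.23 (SE 0.12, FDR 1.48e-15) and 2.27 (SE 0.11, FDR 1.54e-15) in HT-29 and 0.62 and 1.05 in Caco-2. The Caco-2 OD value fell to 0.93 without control replicate 2 and to 0.90 with library size only, both under the limit for a call. CYP51A1 has near-identical pseudogenes and overlaps AKAP9 on the other strand, so its count is uncertain (AKAP9 log2 0.41 and -0.55 in HT-29). Unnamed protein-coding genes absent from the count table also overlap CYP51A1, and likewise EBP, on the same strand. TM7SF2, a sterol reductase that works on the product of CYP51A1, went the other way. In Caco-2 TM7SF2 read 75.2, 81.9 and 89.5 CPM in controls, 18, 18.5 and 24.1 after CoCl2 and 45.1, 50.5 and 59.8 after OD. In HT-29 it was at 42.1, 42.2 and 44 CPM in controls, 15.8, 18.4 and 20.3 after CoCl2 and 42.6, 46.7 and 49.5 after OD. CoCl2 lowered it 4.10-fold in Caco-2 (log2 -2.04, SE 0.11, FDR 1.38e-13) and 2.36-fold in HT-29 (log2 -1.24, SE 0.08, FDR 5.26e-14). With OD it fell in Caco-2 (-0.67, SE 0.11, FDR 1.19e-05) and in HT-29 the log2 fold change was 0.11 (SE 0.07, FDR 0.126). TM7SF2 (chromosome 11, 65111845 to 65116384, plus strand) overlaps VPS51 on the same strand, and the log2 fold changes of VPS51 were 1.06 and 0.24 in HT-29, against 0.27 and 0.27 in Caco-2.

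MSMO1, the oxygen-using methyl sterol oxidase, was the sterol-arm gene that rose most in HT-29. It read 37.8, 39 and 47.9 CPM in controls, 441, 452 and 551 after CoCl2 and 249, 279.7 and 299 after OD in HT-29, with log2 fold changes of 3.54 (SE 0.09, FDR 3.55e-23) and 2.74 (SE 0.08, FDR 4.93e-20). In Caco-2 it read 132, 159 and 179.8 CPM in controls, 219, 246 and 267 after CoCl2 and 269, 302 and 307 after OD, a change of 0.64 and 0.90. NSDHL and HSD17B7, the dehydrogenase and the ketoreductase that complete the removal of the methyl groups, both rose in HT-29. NSDHL there read 44.1, 44.2 and 45.5 CPM in controls, 123, 127 and 134 after CoCl2 and 85.7, 94.9 and 98.7 after OD, so CoCl2 stood above OD. Caco-2 values of NSDHL were 36.8, 42.8 and 46.9 CPM in controls, 53.5, 56.9 and 60.3 after CoCl2 and 69.5, 75.3 and 85.9 after OD. HSD17B7, which has near-identical pseudogenes, read 5.68, 7.28 and 7.60 CPM in controls, 30.04, 30.2 and 31.7 after CoCl2 and 32.8, 36.1 and 39.1 after OD in HT-29. The Caco-2 libraries of HSD17B7 read 17.4, 20.2 and 22 CPM in controls, 20.8, 21.1 and 22.7 after CoCl2 and 21.6, 22.5 and 24.3 after OD, groups that lay within a few CPM of each other (log2 0.11, FDR 0.387, and 0.19, FDR 0.143).

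The isomerase EBP, the desaturase SC5D and the final reductase DHCR7 end the pathway. EBP was at 15.9, 17.2 and 17.7 CPM in controls, 44, 44.8 and 49.1 after CoCl2 and 47.7, 54.5 and 55.9 after OD in HT-29. Its Caco-2 libraries were at 50.04, 54.2 and 59 CPM in controls, 51.5, 60.3 and 62.7 after CoCl2 and 78.5, 84.3 and 99.8 after OD, where CoCl2 and control overlapped. SC5D read 86.3, 99.1 and 100.5 CPM in controls, 364, 371 and 416 after CoCl2 and 233, 261 and 285 after OD in HT-29, and in Caco-2 284, 320.4 and 344 CPM in controls, 334, 384 and 388 after CoCl2 and 424, 475 and 479 after OD. DHCR7 read 112, 118 and 123 CPM in controls, 417, 422 and 440.2 after CoCl2 and 509, 522 and 548 after OD in HT-29, against 399.7, 399.9 and 423 CPM in controls, 401, 416 and 484 after CoCl2 and 707, 713 and 788 after OD in Caco-2. All 3 rose in HT-29 with both agents, by log2 1.43, 2.01 and 1.86 with CoCl2 and by 1.63, 1.45 and 2.16 with OD. In Caco-2 the OD changes were 0.69, 0.54 and 0.85, each past the FDR, and the CoCl2 changes were 0.10, 0.22 and 0.09, of which that of SC5D passed (FDR 0.0221), though not without control replicate 2 (0.15, FDR 0.169) or without CoCl2 replicate 2 or 3 (FDR 0.0766 and 0.0905).

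The promoters of these genes are shown because the enzymes moved together. RefSeq sequence on GRCh38.p14, from 250 bases before to 50 bases after the start, matched 25 of the 30 genes, among them 17 of the 20 synthesis and uptake genes. CCAAT, the motif of the NF-Y factor that works beside SREBP, was found on either strand in 14 of these 17 and in 18 of the 25, against 35.7% of all 27305 promoters. The GC box GGGCGG, read by SP1, was in 15 of the 17 and in 23 of the 25, against 44.6%. The SREBP site was searched as TCACNCCAC and was in 0 of the 17 and in 1 of the 25 (SREBF2), against 1.15% of all promoters. Its shorter form CACCCCAC was in 0 of the 17 and in 2 of the 25 (ABCA1 and SREBF2), against 2.72%. Such a search finds only these strings within this window, so a count of 0 does not show that these genes lack SREBP sites. ACGTG, the core of a HIF site, was in 3 of the 17 and in 7 of the 25, against 21.6%, and the LXR repeat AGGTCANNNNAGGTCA was in none of the 25 (0.018% of all). Matches on both strands were counted, and CCAAT can lie within or beside the other motifs. A few of the stretches that overlap no annotated exon on the strand of the gene are printed, picked with the values of their genes known. Exons on the other strand were not checked. The stretches run from 5′ to 3′ on the strand of the gene, with the motif in capitals (CCAAT, or ATTGG where it lies on the other strand, and TCACCCCAC in SREBF2). They hold the 4 CCAAT matches of MSMO1 (chr4:165327464-165327659, plus), 1 of the 2 of HSD17B7 (chr1:162790630-162790674, plus), the single ones of LSS (chr21:46228900-46228944, minus) and INSIG1 (chr7:155297688-155297732, plus), and the SREBP motif of SREBF2 (chr22:41832927-41833025, plus), beside which a CCAAT match stands in lower case. Such stretches of STARD4, MYLIP, NPC1L1 and ABCA1 are not printed.
MSMO1: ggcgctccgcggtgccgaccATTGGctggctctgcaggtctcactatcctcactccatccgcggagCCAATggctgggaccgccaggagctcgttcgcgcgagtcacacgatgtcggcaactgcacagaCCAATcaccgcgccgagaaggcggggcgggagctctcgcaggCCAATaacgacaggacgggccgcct
HSD17B7: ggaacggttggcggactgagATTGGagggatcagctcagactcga
LSS: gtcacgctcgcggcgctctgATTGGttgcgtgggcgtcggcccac
INSIG1: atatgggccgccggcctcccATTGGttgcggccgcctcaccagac
SREBF2: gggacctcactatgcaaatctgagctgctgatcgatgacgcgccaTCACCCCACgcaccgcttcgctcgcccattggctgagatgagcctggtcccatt

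Of the uptake and transfer genes, STARD4 carries cholesterol between membranes inside the cell and NPC1L1 takes it in from the gut lumen. STARD4 read 38.7, 38.7 and 38.8 CPM in controls, 257, 268 and 324 after CoCl2 and 151, 167 and 172 after OD in HT-29, log2 fold changes of 2.87 (SE 0.07, FDR 7.03e-23) and 2.08 (SE 0.07, FDR 4.2e-19). In Caco-2 it read 66.3, 75.5 and 84.2 CPM in controls, 94, 115 and 118 after CoCl2 and 79.6, 109 and 116 after OD, where 1 of the 3 OD libraries lay in the control range (log2 0.54 for CoCl2 and 0.43 for OD). NPC1L1 stood at 17.7, 20.1 and 20.4 CPM in Caco-2 controls. It fell there with CoCl2 to 11.2, 12.2 and 12.5 (-0.70, SE 0.12, FDR 1.59e-05) and stood at 16.5, 17.1 and 19.3 with OD (-0.14, FDR 0.327). HT-29 libraries held 8, 10 and 10 NPC1L1 reads in the controls, 33, 35 and 53 with CoCl2 and 89, 90 and 125 with OD. The treated groups were apart from control, but the log2 fold changes of 2.68 (SE 0.28, FDR 1.44e-09) and 3.54 (SE 0.23, FDR 3.92e-13) rest on these low counts, and even the OD libraries at 4.74, 5.24 and 6.47 CPM stayed below the Caco-2 controls. NPC1L1 passed the count filter in HT-29 through the treated libraries, where it is high, so these tests are not independent of that choice. Enterocyte markers (ALPI, SI, FABP1 and ANPEP) moved in the same libraries. All 4 fell at the FDR with CoCl2 in Caco-2, where they summed to 502 to 592 CPM in controls and 263 to 300.4 with CoCl2, and with OD (515 to 546 CPM) 1 rose and 1 fell. In HT-29, 3 of the 4 were tested and fell with both agents, from 32.4 to 35.1 CPM in sum to 15.8 to 18.2 with CoCl2 and 18.4 to 21.2 with OD, while ALPI had 0 to 2 counts. Of the 7 epithelial markers, 6 rose and 1 (VIL1) fell with CoCl2 in Caco-2, and 5 rose and 2 (VIL1 and CDX2) fell in HT-29. With OD 5 rose in Caco-2, and 4 rose and the same pair fell in HT-29. VIL1 changed by log2 -0.85 (Caco-2) and -2.62 (HT-29) for CoCl2 and by 0.13 and -1.15 for OD, and CDX2 by 0.93 and -1.46 for CoCl2 and by 0.09 and -0.65 for OD. The part of these markers in the NPC1L1 values was not tested.

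Among the control genes the INSIG pair changed most. INSIG1, which is itself an SREBP target and holds SCAP in the endoplasmic reticulum, had the largest rise of the 30 genes in HT-29 with CoCl2. It read 65.6, 72.1 and 81.1 CPM in controls, 1743, 1772 and 1951 after CoCl2 and 562, 582 and 655 after OD, a 25.1-fold rise with CoCl2 (log2 4.65, SE 0.07, FDR 2.63e-27) and an 8.26-fold rise with OD (log2 3.05, SE 0.07, FDR 6.9e-23). In Caco-2 it read 166, 179.8 and 218 CPM in controls, 488, 513 and 538 after CoCl2 and 429, 439 and 479 after OD, log2 fold changes of 1.45 (SE 0.09, FDR 4.64e-13) and 1.26 (SE 0.09, FDR 1.91e-11). INSIG2, which does the same work but is not driven by SREBP in most cells, showed another pattern. It rose in Caco-2 from 25.4, 26.7 and 27.6 CPM to 134, 152 and 169.8 with CoCl2 and 98.7, 102 and 105 with OD, with the 3 groups apart. The log2 fold changes there were 2.52 (SE 0.09, FDR 2.22e-17) for CoCl2 and 1.94 (SE 0.09, FDR 1.03e-14) for OD. In HT-29 CoCl2 took it from 43.6, 46.7 and 50.5 to 150.1, 157 and 161 CPM (log2 1.73, SE 0.06, FDR 1.67e-20). With OD in HT-29 it read 45.5, 47.8 and 49.7 CPM, within the control range (log2 0.02, SE 0.06, FDR 0.822, 95% interval -0.10 to 0.13), and the sign of this value changed with the scaling. ACGTG was in 7 of the 25 promoters searched, against 21.6% of all promoters. Besides INSIG2 these were INSIG1, STARD4, SC5D and LSS, and also SCAP and ABCA1, which fell with CoCl2 in both lines. The part of this motif in the INSIG2 values was not tested. A stretch of the INSIG2 promoter around its ACGTG match on the other strand, shown in capitals as CACGT, is chr2:118088331-118088425 (plus).
INSIG2: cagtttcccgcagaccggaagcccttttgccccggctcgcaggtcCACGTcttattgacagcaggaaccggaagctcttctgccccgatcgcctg

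The transcription factors changed less in HT-29 than most of their targets. SREBF2 read 221, 223 and 228 CPM in controls, 432, 441 and 448 after CoCl2 and 352, 354 and 354 after OD in HT-29, log2 fold changes of 0.97 (SE 0.04, FDR 1.71e-17) and 0.66 (SE 0.04, FDR 2.62e-13), just under the limit for a call with CoCl2. In Caco-2 it read 325, 332 and 336 CPM in controls, 369, 371 and 389 after CoCl2 and 419, 433 and 444 after OD (0.19 and 0.38), and the CoCl2 value did not pass without control replicate 1 or 3 (FDR 0.0547 and 0.0755). SREBF1, whose products favour fatty acid genes and which is also an LXR target, read 129, 130.0 and 135 CPM in controls, 288, 290.3 and 310.5 after CoCl2 and 201, 202 and 210.5 after OD in HT-29 and was called with CoCl2 (1.17, SE 0.05, FDR 2.99e-18) but had a change of 0.64 with OD. With library size only the CoCl2 value was 0.54. In Caco-2 SREBF1 read 58.9, 62.1 and 64.3 CPM in controls, 91.4, 93.7 and 108 after CoCl2 and 64, 72.1 and 84.2 after OD, a rise of 0.66 with CoCl2. The OD change of 0.25 (FDR 0.0287) was 0.15 (FDR 0.204) without OD replicate 3, and it did not pass without control replicate 1 or 3 either (FDR 0.114 and 0.0645). SCAP changed little, falling with CoCl2 in both lines (-0.39 and -0.25) and with OD in Caco-2 (-0.34) and rising with OD in HT-29 (0.21). MYLIP, an LXR-induced ubiquitin ligase that removes lipoprotein receptors, read 34, 34.5 and 36.9 CPM in controls, 37.9, 40.8 and 41.7 after CoCl2 and 50.9, 54.2 and 55.8 after OD in Caco-2. It rose there with OD (0.61, SE 0.08, FDR 1.97e-06), while the CoCl2 change was 0.19 (FDR 0.053). In HT-29 it read 16.8, 17.4 and 17.6 CPM in controls, 24.7, 24.8 and 26 after CoCl2 and 14.6, 15.9 and 16.6 after OD, so that it rose with CoCl2 (0.54, SE 0.08, FDR 2.56e-07), a value of -0.09 with library size only, and did not pass with OD (-0.14, FDR 0.111).

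**Figure D2:**
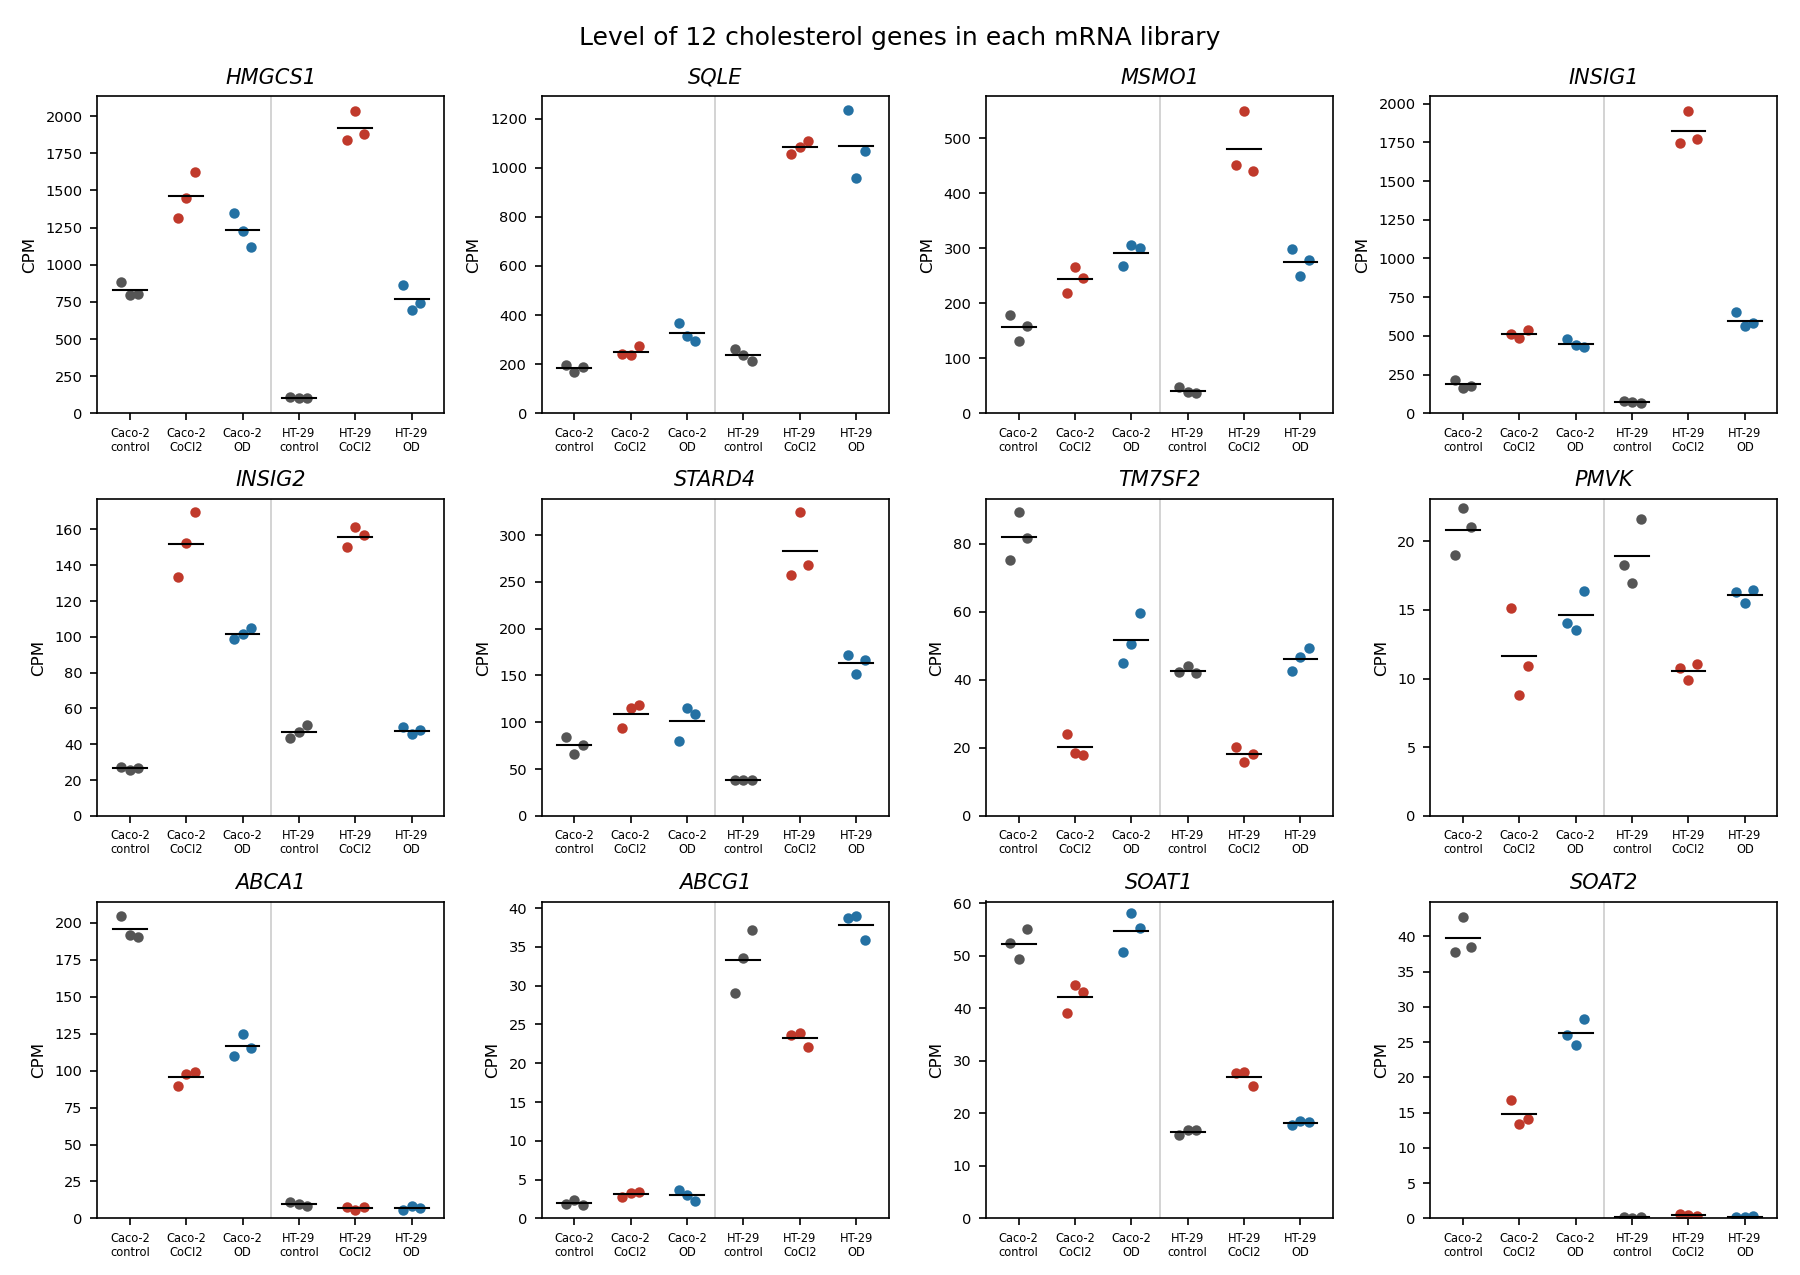
CPM (y axis, linear, from 0) of 12 genes in each of the 18 mRNA libraries, grouped by line and treatment (x axis), with points for libraries and a bar for the mean of 3. HMGCS1, MSMO1 and INSIG1 reach their highest levels in HT-29 with CoCl2, TM7SF2 and PMVK are lowest with CoCl2 in both lines, and ABCA1 and SOAT2 fall with CoCl2 in Caco-2.

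With TMM scaling, efflux and esterification genes were called against control only with CoCl2 in Caco-2, where 2 of 4 were lower. The same comparison called 14.2% of all genes lower, and 4 genes are too few to show an excess over that share. HT-29 had 0 of 3 tested genes called lower with either agent. The shares of all genes called lower there were 23.9% (CoCl2) and 7.57% (OD), so 0 of 3 says little. With library size only, ABCA1 and ABCG1 were also called lower with CoCl2 in HT-29, at -1.15 (FDR 3.13e-08) and -1.16 (FDR 1.38e-13). ABCA1, which loads cholesterol onto apolipoproteins, read 191, 192 and 204 CPM in controls, 89.4, 97.9 and 99.2 after CoCl2 and 109.7, 116 and 125 after OD in Caco-2. Both treated groups lay below the controls, at log2 -1.03 (SE 0.08, FDR 1.94e-11) for CoCl2 and -0.75 (SE 0.07, FDR 1.31e-08) for OD. The CoCl2 value is at the limit for a call and was -0.98 without CoCl2 replicate 1 and -0.99 on the deposited log2 values. In HT-29 ABCA1 was low, with 8.64, 9.90 and 11 CPM in controls, 5.74, 7.39 and 7.41 after CoCl2 and 5.48, 7.29 and 8.09 after OD, and it fell, with log2 fold changes of -0.51 (FDR 0.00159) and -0.49 (FDR 0.00179). ABCG1, which exports cholesterol to lipoprotein particles, was near its limit of detection in Caco-2 with 25, 32 and 36 reads in controls, 33, 45 and 64 with CoCl2 and 32, 50 and 55 with OD. These gave log2 fold changes of 0.67 (SE 0.25, FDR 0.0228) and 0.58 (SE 0.25, FDR 0.0583), and the first did not pass without control replicate 1 or 3 or CoCl2 replicate 3 (FDR 0.0747, 0.0817 and 0.0785). In HT-29 it read 29, 33.6 and 37.2 CPM in controls, 22.1, 23.6 and 23.9 after CoCl2 and 35.9, 38.8 and 39 after OD, a fall with CoCl2 (-0.53, SE 0.08, FDR 8.67e-07). The OD value of 0.17 (SE 0.07, FDR 0.0333) was 0.09 (FDR 0.252) without control replicate 1, and it passed neither without control replicate 2, OD replicate 1 or OD replicate 2 (FDR 0.0695, 0.103 and 0.0874) nor in DESeq2 (FDR 0.106).

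SOAT1, the broadly expressed esterifying enzyme, read 49.4, 52.4 and 55 CPM in controls, 39.1, 43.1 and 44.5 after CoCl2 and 50.8, 55.2 and 58.2 after OD in Caco-2, where it fell with CoCl2 (-0.31, SE 0.09, FDR 0.00344) and the OD change was 0.07 (FDR 0.537). In HT-29 it read 15.9, 16.7 and 16.7 CPM in controls, 25.2, 27.6 and 27.9 after CoCl2 and 17.9, 18.4 and 18.4 after OD, a rise with CoCl2 (0.71, SE 0.07, FDR 1.48e-09) that was 0.07 (FDR 0.362) with library size only, with an OD change of 0.14 (FDR 0.0892). SOAT2, the enzyme of liver and gut that esterifies absorbed sterol, fell in Caco-2 from 37.8, 38.4 and 42.8 CPM to 13.4, 14.1 and 16.8 with CoCl2 (-1.43, SE 0.11, FDR 3.59e-11) and 24.6, 26 and 28.3 with OD (-0.60, SE 0.10, FDR 3.48e-05). The enterocyte markers fell with CoCl2 in these libraries as well, SI by log2 -1.33 and FABP1 by -0.75, and their part in the SOAT2 and ABCA1 values was not tested. In HT-29 it had 2, 3 and 5 reads in controls, 5, 8 and 9 with CoCl2 and 3, 4 and 7 with OD, too few for a test.

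Synthesis and uptake are set beside efflux and esterification by their levels per library. The summed CPM of the 20 synthesis and uptake genes was 1217 ± 41.5 (mean ± SD, n = 3) in untreated HT-29, 6729.8 ± 263 after CoCl2 and 4837 ± 405 after OD. The 4 efflux and esterification genes summed to 59.8 ± 3.3, 57.5 ± 2.18 and 63.3 ± 2.07 in the same order. In Caco-2 the first sum was 3120.1 ± 167, 4107 ± 162 and 4956 ± 85.8, and the second 289.6 ± 6.08, 156 ± 6.58 and 201 ± 10.1. The first sum was thus highest under CoCl2 for HT-29 but under OD for Caco-2, while the second was lowest with CoCl2 in Caco-2. In HT-29 the CoCl2 and OD libraries did not overlap in the second sum, and control libraries overlapped both. Such sums weigh abundant genes most and are given as a description. By gene, the median log2 fold change of efflux and esterification was -0.67 and -0.26 in Caco-2 (CoCl2 then OD, 4 genes) and -0.51 and 0.14 in HT-29 (3 genes tested).

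CoCl2 and OD were next compared directly, which asks where the agents differ. Among 30 genes in Caco-2, 2 were called lower with CoCl2 than with OD (LSS at -1.45, SE 0.08, FDR 9.84e-13 and TM7SF2 at -1.37, SE 0.12, FDR 7.82e-10) and 0 higher, against 6.44% and 5.21% of all genes. For the count of 0, edgeR put 4 genes higher at an unadjusted p under 0.05 and DESeq2 called 0. At the FDR alone 20 were lower and 3 higher (backgrounds 25.2% and 24.4%). The genes higher with CoCl2 were HMGCS1 (0.25), SREBF1 (0.41) and INSIG2 (0.58). The median of the 20 synthesis and uptake genes was -0.44, with all genes at -0.01. In HT-29 members differed in both directions, with shares called (13.8% higher and 3.45% lower) near or under those of all genes. The median of the 20 synthesis and uptake genes there was 0.04, with all genes at -0.07. There 4 of 29 genes were called higher with CoCl2 than with OD, namely HMGCS1 (1.32, SE 0.06, FDR 3.56e-17), IDI1 (1.05, SE 0.06, FDR 1.07e-14), INSIG1 (1.60, SE 0.06, FDR 1.62e-18) and INSIG2 (1.71, SE 0.06, FDR 4.87e-20), and 1 lower, TM7SF2 (-1.35, SE 0.08, FDR 1.25e-14), against 10.8% and 19.2% of all genes. With library size only, HMGCS1 and IDI1 were at 0.83 and 0.55 and no longer called. IDI1 was at the limit, with 0.97 without OD replicate 2 and 0.98 without CoCl2 replicate 2. At the FDR alone 14 were higher and 10 lower (37.1% and 40.6%). Those lower with CoCl2 included LSS (-0.39), DHCR7 (-0.30) and NPC1L1 (-0.86). SQLE (-0.01, 95% interval -0.14 to 0.13), MVD (0.08, interval -0.02 to 0.18) and CYP51A1 (-0.04, interval -0.22 to 0.15) did not pass.

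**Figure D3:**
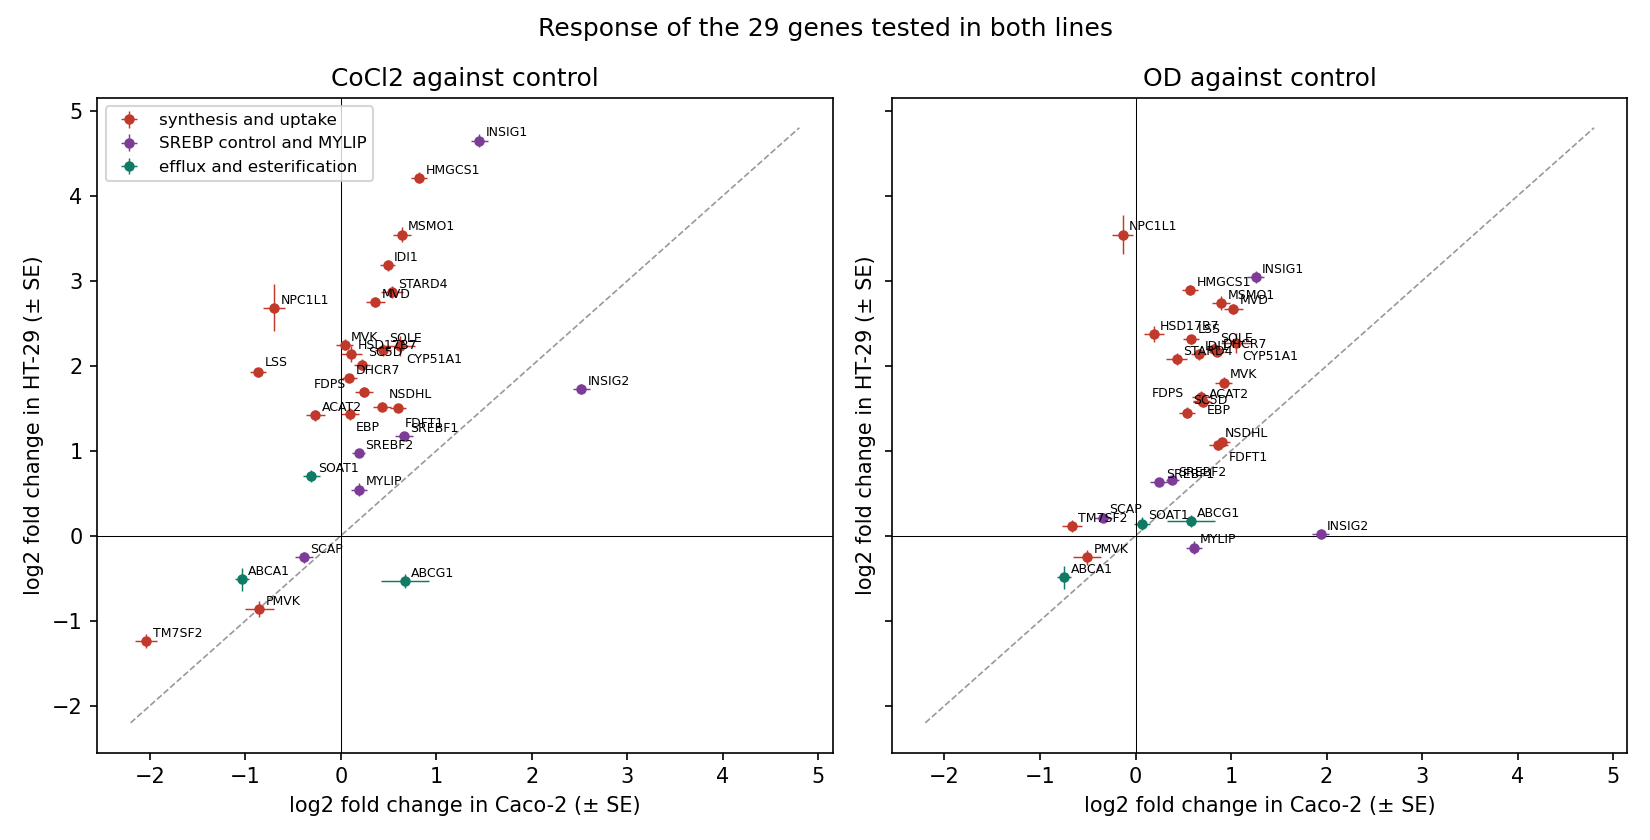
Log2 fold change against control in Caco-2 (x axis) and in HT-29 (y axis), with standard errors, for the 29 genes tested in both lines, CoCl2 on the left and OD on the right, with equal changes on the dashed line. Synthesis and uptake genes (red) lie above the line with both agents except PMVK, which lies on it with CoCl2, and INSIG2 lies far below it, at 1.94 in Caco-2 and 0.02 in HT-29 with OD.

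The difference between the lines was tested as an interaction over all 18 libraries. The CoCl2 response was called larger (more positive) in HT-29 for 18 of 30 genes and smaller for 1, against 7.79% and 13.8% of all genes. The 18 include SOAT2, which had too few reads for a test within HT-29 and entered this fit through its Caco-2 counts, so its value is not a comparison of responses. Of the 29 genes tested in both lines 17 were larger and 1 was smaller. For OD the counts were 12 and 1, against 8.96% and 6.24%. NPC1L1 is among the 17 and the 12, although its HT-29 responses rest on controls of 8 to 10 reads. At the FDR alone they were 25 and 2 for CoCl2 with SOAT2 among the 25 (21.1% and 28.6% of all genes) and 21 and 2 for OD (20.9% and 22%). HMGCS1 had a difference of 3.29 (SE 0.11, FDR 6.58e-22) for CoCl2 and 2.30 (SE 0.11, FDR 1.79e-17) for OD, and INSIG1 of 3.09 and 1.77. LSS, which fell in Caco-2 with CoCl2, differed by 2.68 (SE 0.10, FDR 4.88e-21). FDFT1 and NSDHL, at 0.17 and 0.18, did not pass for OD (FDR 0.174 and 0.229). INSIG2 was the member called with the smaller response in HT-29 for OD, at -1.94 (SE 0.11, FDR 1.06e-15), and its CoCl2 difference was -0.90 (SE 0.11, FDR 1.82e-08). MYLIP also had a smaller response to OD at the FDR alone (-0.77). ABCG1 differed by -1.31 (SE 0.23, FDR 1.26e-05) for CoCl2. PMVK had differences of -0.11 and 0.24 (FDR 0.669 and 0.28), so unequal change was not detectable for it.

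The lines also differed before treatment. In controls 15 of the 30 genes were called lower in HT-29 than in Caco-2 (14 of the 29 without SOAT2) and 2 higher, against 24.2% and 21.6% of all genes. The FDR alone passed for 23 lower and 5 higher (39.6% and 39.5%). On library sizes scaled over all 18 libraries, HMGCS1 was at 814 ± 47.8 CPM (mean ± SD, n = 3) in Caco-2 and 108 ± 3.20 in HT-29 (log2 -2.91, SE 0.09, FDR 1.18e-25), IDI1 at 275 ± 29.6 and 71.6 ± 2.29, and DHCR7 at 400.4 ± 13 and 123 ± 4.27. Among the exporters, ABCA1 was at 192 ± 7.53 and 10.3 ± 1.16 CPM (log2 -4.24, SE 0.10, FDR 5.49e-29), while ABCG1 ran the other way with 1.97 ± 0.353 and 34.8 ± 4.57 (log2 4.15, SE 0.14, FDR 1.27e-23). SREBF1 was the other gene higher in HT-29 (1.18, SE 0.08, FDR 7.86e-16). SQLE (0.46), FDFT1 (0.26) and INSIG2 (0.92) were higher at the FDR alone, so the low starting level was not shared by all synthesis genes.

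Levels between genes can be set side by side only per length, as RPKM recovered from the deposited log2 values. In Caco-2 controls HMGCS1 (128 ± 7.56 RPKM, mean ± SD, n = 3) and DHCR7 (101 ± 3.35) stood highest and apart from each other, followed by IDI1 (65.7 ± 7.07), MSMO1 (56.1 ± 8.65) and INSIG1 (52.5 ± 7.51), which lay within about their spread. CYP51A1 (2.02 ± 0.442), whose count is uncertain in both lines, and ABCG1 (0.334 ± 0.0608) were lowest. HT-29 controls began with SQLE (57.1 ± 5.88), FDFT1 (34.7 ± 0.965), SREBF2 (30.6 ± 0.443) and DHCR7 (29.4 ± 1.31), of which the last pair was not separated. CYP51A1 (0.978 ± 0.082) and ABCA1 (0.902 ± 0.11) closed the order, with NPC1L1 and SOAT2 listed at 0 after the authors' filter. With CoCl2, INSIG1 at 483 ± 28.3 RPKM and HMGCS1 at 280.0 ± 14.2 stood highest in HT-29, and with OD SQLE at 256 ± 32.8.

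**Figure D4:**
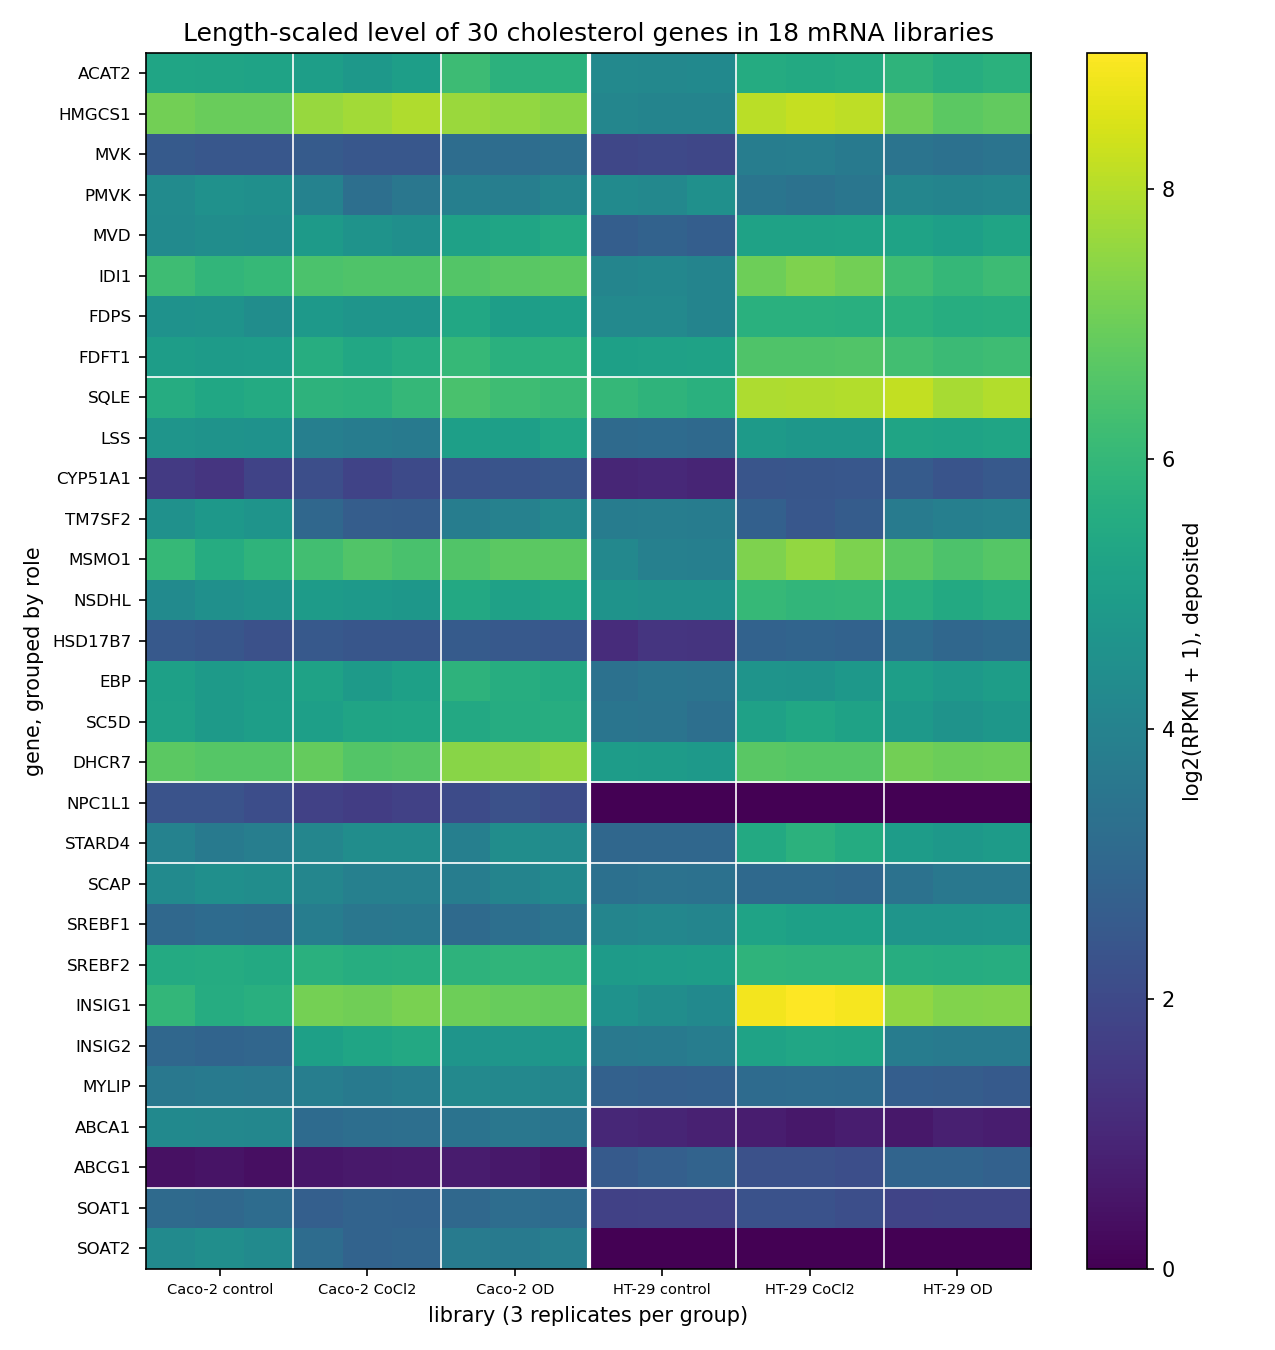
Deposited log2(RPKM + 1), shown by colour, of the 30 genes (y axis, grouped by role) in the 18 mRNA libraries (x axis, 3 per group). HT-29 control columns are darker than the treated ones over most synthesis rows, and NPC1L1 and SOAT2 in HT-29 are at 0 because the authors' filter left them out there.

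The wider pathway was read from 30 further genes of sterol sensing, transport and branching, of which 27 were tested. With CoCl2 in Caco-2 1 of them was called higher and 3 lower, and with OD 1 was called, higher. These were 3.7% and 11.1% of the 27 with CoCl2 and 3.7% with OD, where 9.13%, 14.2% and 4.43% of all genes were called. In HT-29 the counts were 8 and 6 with CoCl2 (29.6% and 22.2%, against 17.4% and 23.9% of all genes) and 2 and 1 with OD (7.41% and 3.7%, against 9.50% and 7.57%), so most of these shares were near or under those of all genes. NPC1, which moves cholesterol out of lysosomes, was called higher in all 4 comparisons. In HT-29 it was at 49.8, 50.7 and 59.8 CPM in controls, 377, 384 and 387 after CoCl2 and 204, 222 and 247 after OD. Caco-2 libraries of NPC1 were at 50.7, 51.2 and 53.2 CPM in controls, 148, 157 and 169 after CoCl2 and 111, 116 and 122 after OD. NPC1 changed by log2 values of 2.83 (SE 0.07, FDR 2.55e-23) and 2.06 (SE 0.07, FDR 1.25e-19) in HT-29 and 1.61 and 1.17 in Caco-2. NPC2, its soluble partner, rose in HT-29 (1.64 and 1.01). Genes called lower with CoCl2 in Caco-2 were ERLIN2, which acts in sterol-regulated protein breakdown (-1.25), LPCAT3, a phospholipid acyltransferase under LXR (-1.14), and COQ2, which makes ubiquinone from isoprenoids (-1.05). At most 4 called genes per comparison, those with the largest change, are given a log2 value, so other called genes are not listed. With CoCl2 in HT-29 COQ2 was lower too (-1.68), and SMPDL3A, an LXR target, was higher (1.49). ERLIN2 read 21.9 to 23.3 CPM in controls there and 7.24 to 9.93 after CoCl2, and MBTPS2, of SREBP processing, 18.6 to 21.1 and 7.74 to 9.63. The LXR gene NR1H2 read 38.1 to 45.5 and 107 to 121. PDSS1, which builds the ubiquinone side chain, was lower with OD (-1.51) and read 10.8 to 12.7 in controls and 4.44 to 4.93 after CoCl2. ABCG5, ABCG8 and CH25H were not tested in either line.

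The miRNA libraries give a second readout of the SREBF loci. miR-33a lies within an intron of SREBF2 and miR-33b within an intron of SREBF1, and miR-33 is known to repress ABCA1. The mature arms are shown, 5′ to 3′ from RefSeq on GRCh38.p14, with the seed (bases 2 to 8) in capitals, because the -5p arms of both loci share 1 seed. They map to chr22:41900949-41900969 (33a-5p) and chr22:41900989-41901010 (33a-3p) on the plus strand, and to chr17:17813897-17813916 (33b-5p) and chr17:17813857-17813878 (33b-3p) on the minus strand.
hsa-miR-33a-5p: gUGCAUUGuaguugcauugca
hsa-miR-33b-5p: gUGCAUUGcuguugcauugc
hsa-miR-33a-3p: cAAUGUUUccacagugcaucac
hsa-miR-33b-3p: cAGUGCCUcggcagugcagccc

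The match of the shared seed in a transcript is CAATGCA, and 1598 of 18772 annotated 3′ UTRs (8.51%) hold it. Of the 30 genes 3 did, with 4 matches in ABCA1, the first pair overlapping, and 1 each in LSS and SCAP. The ABCA1 matches, with the match in capitals and numbered by position in the 3′ UTR, lie on chromosome 9 (minus strand, GRCh38) at 104784174 to 104784180, 104784169 to 104784175, 104784159 to 104784165 and 104782834 to 104782840.
ABCA1 135: actgatactattCAATGCAatgcaattc
ABCA1 140: tactattcaatgCAATGCAattcaatgc
ABCA1 150: tgcaatgcaattCAATGCAatgaaaaca
ABCA1 1475: ttttaattgcaaCAATGCAaaagccaag

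Although the host genes rose in HT-29, no tested miR-33 arm passed the FDR against control in edgeR or in DESeq2, so none was called. Of all miRNAs, 0.936% and 0.375% were called at both thresholds in Caco-2 (CoCl2, then OD), with 4.87% and 2.92% in HT-29. The share of miRNAs that passed the FDR alone is not given here. In Caco-2 miR-33a-5p had 23, 116 and 125 counts in controls, 69, 88 and 143 with CoCl2 and 100, 120 and 124 with OD. HT-29 controls had 135, 160 and 160, CoCl2 libraries 0, 106 and 130, and OD libraries 9, 121 and 122. The groups overlapped once depth was counted, with log2 fold changes in HT-29 of -0.07 (SE 0.20, FDR 0.862) and 0.02 (SE 0.19, FDR 0.979), and in Caco-2 of -0.29 (SE 0.20, FDR 0.421) and -0.06 (SE 0.20, FDR 0.885). The lowest FDR against control was that of miR-33b-3p with CoCl2 in HT-29 (-0.46, SE 0.19, FDR 0.139). This was the 1 arm with an unadjusted p under 0.05. Depth limits this readout, since 3 miRNA libraries held 34043, 466975 and 763531 counts, and the low values of miR-33a-5p come from them. With 0 to 7 counts in each library, miR-33b-5p was left untested. Standard errors over the tested arms ran from 0.17 to 0.34 on the log2 scale.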

How the data were processed

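RNA of the 6 groups was measured as mRNA and, in separate libraries, as miRNA. The authors deposited raw counts per gene and per mature miRNA, and log2 tables of RPKM and CPM plus 1. Per the labels, FastQC 0.11.9, cutadapt 2.10, STAR 2.7.5b, Bowtie 1.1.1, edgeR 3.30.3 and build GRCh38.p13 were named in the submitters' processing notes, and the study used GENCODE gene models. The study names a stranded kit for its mRNA libraries, but the counting tool and its use of strand are not given in the sources used here. Genes below the authors' filter stand at 0 in the deposited log2 table, which was used for levels per length and in 1 alternative.

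Counts were fitted in edgeR 4.0.16 (R 4.3.3) with TMM scaling, filterByExpr and a two-sided quasi-likelihood F test, 9 libraries per line for comparisons within a line and 18 for those between lines. P-values were adjusted by Benjamini-Hochberg over all genes tested in a fit, 16034 in Caco-2, 15812 in HT-29 and 17921 over both lines. A call needed an FDR under 0.05 and a log2 fold change over 1 in size. The script was tested on simulated data. Samples were grouped by their labels, and 0 columns had no sample. Totals were 12925719 to 22332639 counts for mRNA and, for 3 miRNA libraries, under 1000000. Per-library values are given for members called against control, for efflux and esterification genes, and for SREBF1, SREBF2, INSIG1, INSIG2, NPC1L1 and MYLIP. PMVK is given in full too, chosen after its values were seen. Of the other pathway genes, up to 4 called genes with the largest change and a mean count of at least 100 were named per comparison. CPM of ERLIN2, MBTPS2, NR1H2 and PDSS1 in HT-29 with CoCl2 were added after their values were seen. The members and gene lists were chosen with earlier results of these data known. Alternatives were other scaling, DESeq2 1.42.0, limma 3.58.1 on log2 values, no filter, no fold limit, the replicate number as a block, and each library left out. Promoter and miRNA sequences were read from RefSeq tables, and gene positions, overlaps and 3′ UTRs from GENCODE 44.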

Additional observations from a re-analysis of the deposited data

Results flagged for a closer look

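The response to treatment differed between the lines by the interaction test (edgeR over 18 libraries) in 31 values among the genes tested in both lines, given as the log2 response in HT-29 minus that in Caco-2. For CoCl2 the mevalonate arm differed by 1.58 for ACAT2, 3.29 for HMGCS1, 2.1 for MVK, 2.28 for MVD, 2.58 for IDI1 and 1.34 for FDPS. In the sterol arm the CoCl2 differences were 1.64 for SQLE, 2.68 for LSS, 1.51 for CYP51A1, 2.80 for MSMO1, 1.93 for HSD17B7, 1.23 for EBP, 1.69 for SC5D and 1.66 for DHCR7. They were 3.27 for NPC1L1, 2.23 for STARD4, 3.09 for INSIG1 and -1.31 for ABCG1. NPC1L1 in HT-29 controls had 8 to 10 reads and passed the filter there through its treated libraries, so its differences for CoCl2 and OD are not firm. SOAT2, with 2 to 9 reads per library in HT-29, is left out.

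For OD the differences were 2.30 for HMGCS1, 1.63 for MVD and 1.45 for IDI1 in the mevalonate arm, and 1.35 for SQLE, 1.71 for LSS, 1.20 for CYP51A1, 1.82 for MSMO1, 2.17 for HSD17B7 and 1.29 for DHCR7 in the sterol arm. NPC1L1 differed by 3.66, STARD4 by 1.63 and INSIG1 by 1.77, all larger in HT-29. INSIG2 differed by -1.94, smaller in HT-29. The FDR over the 31 values reached at most 1.26e-05. Line, culture state and serum cannot be told apart in these values.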

How the results depend on the processing

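Calls for single genes and counts of members called kept their direction with RLE size factors, DESeq2 or no filter on low counts, except INSIG2 with OD in HT-29, which was 0.02 with TMM, -0.0043 with RLE and -0.0035 with DESeq2. IDI1 for CoCl2 against OD in HT-29 was 0.99 with no filter and 0.97 on the deposited log2 values, under the limit of 1. Of the 18 counts of members, dropping the fold limit moved 15 and library size without TMM moved 7, and the latter turned the sign of 12 values of members. Members called lower became 6 for CoCl2 and 5 for CoCl2 against OD in Caco-2, and 4 for each of these in HT-29, while members called higher became 2 for OD in Caco-2 and 2 for CoCl2 against OD in HT-29. The CoCl2 interaction then had 2 lower. Signs turned with CoCl2 in Caco-2 for MVK (-0.28), FDPS (-0.077), HSD17B7 (-0.21), EBP (-0.23), SC5D (-0.10), DHCR7 (-0.23), SREBF2 (-0.13) and MYLIP (-0.13), with OD there for SOAT1 (-0.085) and miR-33a-5p (0.0090), and in HT-29 for MYLIP with CoCl2 (-0.090) and for TM7SF2 (-0.021), INSIG2 (-0.12) and miR-33a-5p (-0.068) with OD. This alternative leaves composition uncorrected, and beyond that the cause was not tested. On the deposited log2 values 2 members were called higher with OD in Caco-2, where MVD was 0.95 and CYP51A1 0.76.

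With the FDR alone, which drops the fold limit, the counts higher and lower were 16 and 9 for CoCl2, 21 and 5 for OD and 3 and 20 for CoCl2 against OD in Caco-2. In HT-29 the lower counts were 5 for CoCl2 and 2 for OD, and CoCl2 against OD had 14 and 10. The CoCl2 interaction had 2 lower, the OD interaction 21 higher and 2 lower, and untreated HT-29 against Caco-2 5 higher and 23 lower. Leaving out 1 library in turn gave 1 to 2 members lower for CoCl2 against OD in HT-29, 2 without CoCl2 replicate 2, and 3 to 5 higher for OD in Caco-2, where MVD was 0.93 without OD replicate 3 and MSMO1 1.01 without control replicate 1. PMVK with CoCl2 in Caco-2 was -1.06 without CoCl2 replicate 1. Ranges that crossed 0 were -0.033 to 0.075 for INSIG2 with OD in HT-29 and -0.0022 to 0.088 for MVK with CoCl2 in Caco-2. For miR-33 they were -0.038 to 0.30 (33a-3p, CoCl2), -0.093 to 0.25 (33a-3p, OD), -0.16 to 0.054 (33a-5p, OD) and -0.40 to 0.064 (33b-3p, OD) in Caco-2, and -0.24 to 0.079 (33a-5p, CoCl2), -0.16 to 0.17 (33a-5p, OD) and -0.16 to 0.047 (33b-3p, OD) in HT-29. Without libraries under 1000000 counts, miR-33a-5p with OD was 0.039 in Caco-2 and -0.012 in HT-29.

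No shared deviation of same-numbered samples of different treatments was detected (correlations of -0.0554 to 0.0676 over 9 pairs in Caco-2 and -0.0369 to 0.0245 over 9 pairs in HT-29). With 3 libraries per group this cannot show whether such samples also shared a culture or a day. With the replicate number as a block the counts higher and lower were 2 and 3 for CoCl2, 4 and 0 for OD and 0 and 2 for CoCl2 against OD in Caco-2, and 21 and 1, 19 and 0, and 4 and 1 in HT-29. The block gave 18 and 1 for the CoCl2 interaction, 12 and 1 for the OD interaction, and 2 and 16 for untreated HT-29 against Caco-2. Low counts limit SOAT2 and NPC1L1 in HT-29, ABCG1 in Caco-2 and miR-33b-5p in both lines.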
